A study of Homo sapiens with 6 samples.

Results

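Oxidative phosphorylation runs on 5 protein complexes of the inner mitochondrial membrane. Complexes I to IV pass electrons from NADH and succinate, by way of coenzyme Q and cytochrome c, to oxygen and build a proton gradient, which complex V, the ATP synthase, spends to make ATP. Their subunits come from both genomes of the cell: the mitochondrial DNA codes for the core membrane subunits of complexes I, III, IV and V, and nuclear genes code for the rest and for all of complex II. The nuclear mRNAs are transcribed by RNA polymerase II and translated in the cytosol, whereas the mitochondrial mRNAs are cut out of long transcripts that a separate polymerase, POLRMT, makes inside the organelle.

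The genes were taken by name from the count tables: mitochondrial MT-ND, MT-CO, MT-ATP and MT-CYB genes, the NDUF, SDH, UQCR, COX and ATP5 subunits, the NDUFAF assembly factors of complex I, CYC1 and CYCS. The name rule found 125 of 56638 gene rows. Of these, 100 are oxidative phosphorylation genes, 13 mitochondrial and 87 nuclear. The other 25 are 22 pseudogene rows and the genes ATP5S, ATP5SL and ATP5L2, which were kept apart because they are no core subunits. Gene symbols are those of the count tables, so the ATP synthase subunits carry their older ATP5 names.

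RNA was sequenced from 3 TGFB1 and 3 control libraries of SW480, an established human colorectal adenocarcinoma line. The TGFB1 cells had received TGF-β1, a cytokine that signals through SMAD transcription factors, at 10 ng/ml and repeatedly, and the control cells were untreated. All libraries are labelled with passages 16 to 19 and the same serum-containing RPMI-1640 medium. How long the exposure lasted is not stated, the libraries are of 1 line, and nothing says that replicates are separate cultures. The libraries held 13012898 to 16005222 counts in genes with TGFB1 and 13828306 to 15298355 in controls. The cells' epithelial keratin KRT8 stood at 1675 ± 20.4 CPM with TGFB1 and 1708 ± 1.33 CPM in controls (SD, n = 3 each; CPM, read counts scaled to a common library total, with TMM factors). Of the 8 colon epithelium markers 3 were tested and 2 were called lower: the keratin KRT18, at 125 ± 2.59 CPM with TGFB1 and 183 ± 7.34 CPM in controls (log2 fold change -0.55), and EPCAM, at 4.05 ± 1.00 CPM with TGFB1 and 6.92 ± 0.542 CPM in controls (log2 fold change -0.79). The intestinal markers KRT19, KRT20, VIL1, CDX1 and CDX2 were under 1 CPM in every library. All 5 immune markers were under 1 CPM, and the 10 fibroblast markers summed to 121 to 136 CPM with TGFB1 and 91.6 to 95.3 CPM in controls, with COL1A2, COL3A1 and PDGFRA at or near 0 and all 5 tested genes of that list called higher. The 4 endothelial markers summed to at most 0.882 CPM with TGFB1 and 3.27 CPM in controls. The part of these markers in the results was not tested. In such bulk RNA, fewer cells of a kind and less of an mRNA per cell cannot be told apart.

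The oxidative phosphorylation mRNAs were lower with TGFB1 on balance, by small amounts and from both genomes. Of the 100 genes, 96 had enough reads to be tested. In the edgeR test over all 14897 genes, 49 of the 96 fell and 3 rose at an adjusted p under 0.05, while 44 were not called. Over all genes tested, 23.9% were called lower and 23.4% higher, where the members had 51.0% lower and 3.12% higher. The median log2 fold change was -0.18 over the 96 members and 0.00 over all genes. The sign was negative for 86 of the 96. The 3 TGFB1 libraries all lay under the 3 control libraries for 47 members and all above them for 4, against 27.3% and 27.0% of all genes.

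The changes were small. The estimated change was within 1.2-fold for 67 of the 96 genes and for 26 of the 52 called ones. When edgeR's glmTreat asked for a change beyond 1.2-fold, 12 members were called lower and 1 higher, where 11.3% of all genes were called lower and 12.4% higher. The 12 were MT-ND1, MT-ND4, MT-ND4L, MT-ND5, MT-ND6, SDHA, UQCRC2, COX6C, COX7B, COX7C, ATP5B and ATP5G3. They cover every complex, and 5 of them are mitochondrial subunits of complex I. As a count, 12 of 96 was near the 11.3% of all genes called lower, while 1 of 96 was below the 12.4% called higher. The members are also highly counted genes, with a median log2 CPM of 6.44, against 4.48 over all genes tested. Among the 6201 genes whose mean log2 CPM was 5 or more, about 32 CPM, 32.3% were called lower and 23.8% higher. The 59 nuclear members above that level had 36 lower (61.0%) and 1 higher.

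**Figure D1:**
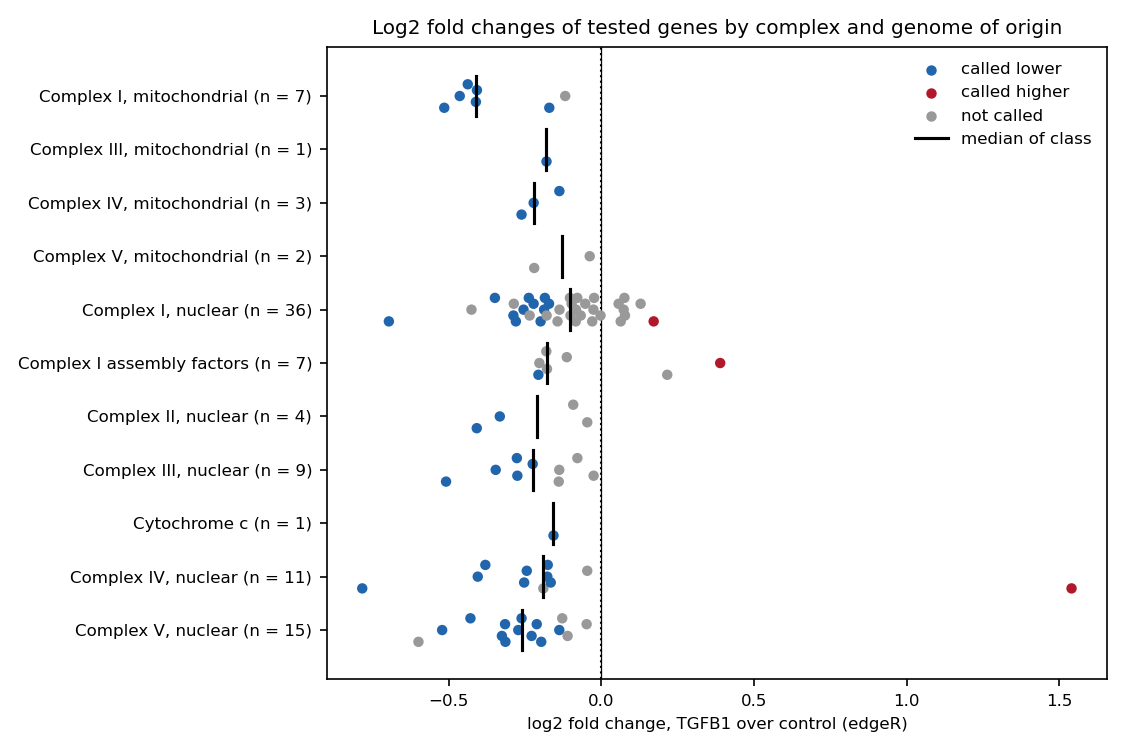
Log2 fold changes of the 96 tested genes, TGFB1 over control, by complex and genome of origin; each point is a gene, colour gives the edgeR call, bars are class medians and the dotted line is the median of all genes tested. Nearly all points lie left of 0, the mitochondrial complex I genes center on -0.41 and the nuclear complex I genes on -0.10.

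Both genomes contributed. Of the 13 mitochondrial genes 10 fell (76.9%) and none rose, with a median log2 fold change of -0.22 and a negative sign in all 13. Of the 83 tested nuclear genes 39 fell (47.0%), 3 rose (3.61%) and 41 were not called, with a median of -0.18 and a negative sign in 73. Over all genes 23.9% fell and 23.4% rose. Scaling by library size alone, without the TMM factors, gave 7 nuclear genes higher and 29 lower, and 9 mitochondrial genes lower. The 13 mitochondrial mRNAs took 4.50%, 4.50% and 4.35% of all gene counts in TGFB1 libraries 1, 2 and 3, against 5.00%, 5.36% and 5.17% in controls 1, 2 and 3. The 87 nuclear genes took 0.853%, 0.836% and 0.898% with TGFB1, against 0.957%, 1.00% and 0.973% in controls. The groups did not overlap in either share.

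The balance of the genomes moved little. The summed CPM of the mitochondrial mRNAs was 17.3% lower with TGFB1, and that of the nuclear genes 15.2% lower. The ratio of the mitochondrial to the nuclear sum was 5.27, 5.38 and 4.85 with TGFB1 and 5.22, 5.34 and 5.32 in controls, so the groups overlapped. The ratio averaged 5.17 ± 0.281 with TGFB1 and 5.29 ± 0.0615 in controls (SD, n = 3 each). The low TGFB1 value belongs to TGFB1 library 3, which stood apart from its group in the nuclear genes. Their median shift against the control mean was -0.20 and -0.23 on the log2 scale in TGFB1 libraries 1 and 2 and -0.086 in library 3. Without library 3, 47 nuclear genes were called lower and 2 higher.

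**Figure D2:**
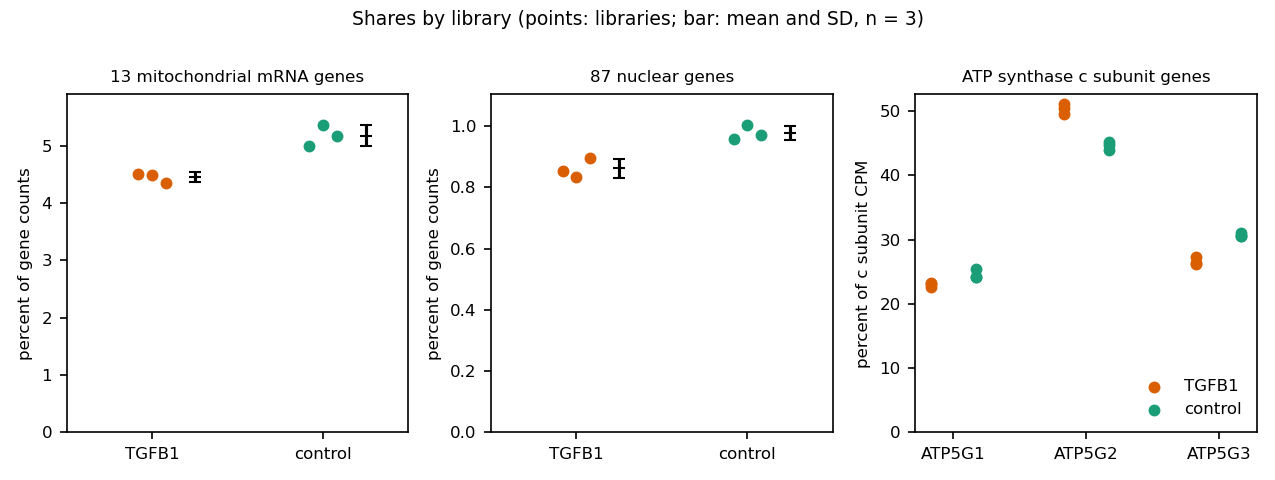
Percent of all gene counts in the 13 mitochondrial and the 87 nuclear genes, and each ATP synthase c subunit gene as a percent of the CPM of all 3 c genes, by library; black bars are mean and SD (n = 3). The TGFB1 shares of both genomes lie under those of the controls, and the ATP5G2 share lies above them.

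The mitochondrial subunits of complex I had the most negative median of all classes. These 7 ND subunits form most of the proton-pumping membrane arm of the NADH dehydrogenase. Of the 7, 6 fell (85.7%, against 23.9% of all genes), with a class median of -0.41. All 7 have a mean log2 CPM of 5 or more, where 32.3% of genes were called lower. MT-ND1, next to the quinone site, had 2837, 2765 and 2863 CPM with TGFB1, against 3796, 4199 and 4091 CPM in controls. The groups were far apart, and the log2 fold change was -0.51 ± 0.047 (SE; edgeR adjusted p = 2.8e-10), a level 30.0% lower. MT-ND4, one of the pumping subunits and the most counted of the ND genes, had 7318, 7138 and 6786 CPM with TGFB1, against 8974, 9831 and 9426 CPM in controls, a log2 fold change of -0.41 ± 0.047 (edgeR adjusted p = 2.91e-08). The antiporter-like subunit MT-ND5 had 2609, 2768 and 2393 CPM with TGFB1, against 3318, 3643 and 3559 CPM in controls. With a log2 fold change of -0.44 ± 0.052 (edgeR adjusted p = 4.27e-08), the groups again did not overlap.

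MT-ND6 is the only 1 of the 13 that is read from the other strand of the mitochondrial DNA. It had 466, 483 and 461 CPM with TGFB1, against 559, 678 and 632 CPM in controls, and its log2 fold change of -0.41 ± 0.055 (edgeR adjusted p = 6.38e-07) was close to those of MT-ND4 and MT-ND5. The strand setting of the counting is not given, so reads of MT-ND6 and of transcripts running the other way across it cannot be told apart. MT-ND4L, a small membrane subunit, had 562, 549.5 and 434 CPM with TGFB1, against 722, 735 and 674 CPM in controls. Its log2 fold change was -0.46 ± 0.083 (edgeR adjusted p = 0.000599), with TGFB1 library 3 lower than the other two. With offsets for GC content and gene length its edgeR adjusted p was 0.0548.

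The remaining ND genes moved less. MT-ND2 had 3131, 3023 and 3048 CPM with TGFB1, against 3336, 3582 and 3433 CPM in controls, a log2 fold change of -0.17 ± 0.045 (edgeR adjusted p = 0.00262) with no overlap. MT-ND3, which carries a loop at the quinone site, had 483, 484 and 617 CPM with TGFB1, against 551, 597 and 569 CPM in controls. TGFB1 library 3 was the highest of all 6 libraries here, and the log2 fold change of -0.12 ± 0.083 was not called (edgeR adjusted p = 0.276). Without that library it was -0.24, with an edgeR adjusted p of 4.06e-05.

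**Figure D3:**
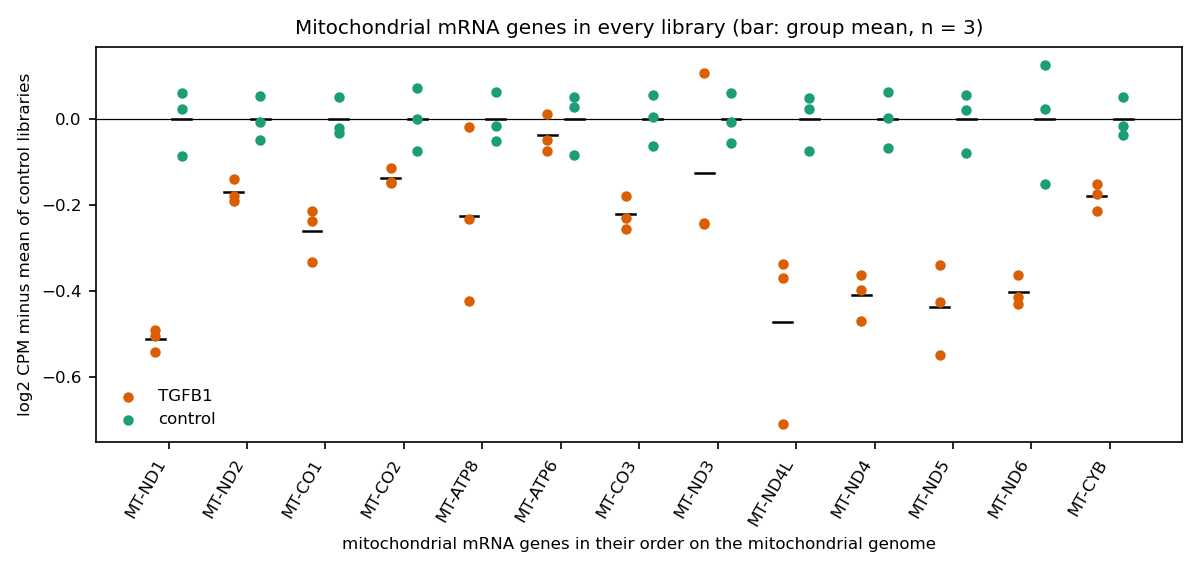
Log2 CPM of the 13 mitochondrial mRNA genes minus the mean of the control libraries, in map order; each point is a library, TGFB1 left and control right, and bars are group means (n = 3). The TGFB1 points of MT-ND1, MT-ND4, MT-ND5 and MT-ND6 lie clear of the controls and those of MT-ATP6 overlap them.

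The catalytic core of complex IV, cytochrome c oxidase, is coded in the mitochondrion, and all 3 of its genes fell by less than most ND genes. MT-CO1, which holds the oxygen-binding site, had 10493, 10672 and 9822 CPM with TGFB1, against 12109.7, 12823 and 12197 CPM in controls, a log2 fold change of -0.26 ± 0.047 (edgeR adjusted p = 3.32e-05). MT-CO3 had 5973, 5869 and 6189 CPM with TGFB1, against 6703, 7281 and 7033 CPM in controls, a log2 fold change of -0.22 ± 0.046 (edgeR adjusted p = 0.000224). MT-CO2, which takes electrons from cytochrome c, had 5171, 5048 and 5055 CPM with TGFB1, against 5313, 5882 and 5599.5 CPM in controls. The log2 fold change of -0.14 ± 0.046 (edgeR adjusted p = 0.0164) had an adjusted p of 0.0825 without control library 2 and 0.0602 without control library 3. MT-CYB, the cytochrome b of complex III, had 2292, 2257 and 2196 CPM with TGFB1, against 2483, 2638 and 2518 CPM in controls, a log2 fold change of -0.18 ± 0.045 (edgeR adjusted p = 0.00152).

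Neither mitochondrial ATP synthase gene was called. MT-ATP6, the proton channel subunit a, had 2962, 2837 and 2787 CPM with TGFB1, against 2772, 3045 and 2996 CPM in controls. These overlap, the log2 fold change was -0.038 ± 0.047 (edgeR adjusted p = 0.546), and its sign turned to 0.019 with scaling by library size alone. The short accessory subunit MT-ATP8 had 13, 9.82 and 11.2 CPM with TGFB1, against 13, 13.8 and 12.7 CPM in controls, a log2 fold change of -0.22 ± 0.11 (edgeR adjusted p = 0.112). Without TGFB1 library 1 the log2 fold change was -0.33, with an edgeR adjusted p of 0.0347.

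MT-ATP8 and MT-ATP6 lie on 1 shared mRNA and overlap in sequence, as do MT-ND4L and MT-ND4. The tables total reads that touch more than 1 gene as ambiguous and give them to no gene, and the counting mode is not stated. The stretches that the genes share, in GRCh38 with GENCODE 29 genes, lie at chrM:8527-8572 and chrM:10760-10766 on the plus strand and are shown because a read within them matches both genes.
MT-ATP8 and MT-ATP6: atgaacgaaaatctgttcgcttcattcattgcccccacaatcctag
MT-ND4L and MT-ND4: atgctaa
MT-ATP8 is 207 bases long, of which these 46 are shared, and MT-ND4L is 297 bases long. The level of MT-ATP8 was 54.9 CPM per kb of gene with TGFB1 and 63.7 in controls, where MT-ATP6, on the same mRNA, had 4203 with TGFB1 and 4314 in controls. MT-CO3 led the order of levels per length, at 7666 ± 208 CPM per kb with TGFB1 and 8936 ± 369.7 in controls (SD, n = 3 each). MT-CO2 followed at 7443 ± 101 with TGFB1 and 8185 ± 416 in controls, and MT-CO1 at 6699 ± 290.5 with TGFB1 and 8026 ± 252 in controls. The ranges of mean ± SD of MT-CO3 and MT-CO2 overlapped in both groups, and those of MT-CO2 and MT-CO1 in controls only. MT-ND4 was next at 5138 with TGFB1 and 6829 in controls, then MT-ATP6. MT-ND6 was low in this order, at 895 ± 21.95 CPM per kb with TGFB1 and 1187 ± 114 in controls.

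Copies of mitochondrial DNA in the nuclear genome are a further limit on these counts. The pseudogene row MTATP6P1 had 669.7 ± 18.0 CPM with TGFB1 and 661.5 ± 31.0 CPM in controls (SD, n = 3 each), and its log2 fold change was 0.018 (edgeR adjusted p = 0.785). MTND2P28 had 18.5 CPM with TGFB1 and 22.5 CPM in controls and was called lower, as was MT-ND2. Summing the named copies into their parents left 10 mitochondrial genes lower and none higher.

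Among the nuclear classes complex I had the least negative median. Of its 36 nuclear subunits 11 fell (30.6%), 1 rose and 24 were not called. The share called lower was 23.9% over all genes. It was 32.3% over genes with a mean log2 CPM of 5 or more, as 22 of the 36 have, so the class was near that share. The class median was -0.10, or -0.045 with scaling by library size alone, and the summed CPM of the 36 was 5.95% lower. The mitochondrial ND genes of the same complex had summed CPM 23.5% lower. No nuclear subunit of complex I passed the test against 1.2-fold.

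NDUFS1, the large iron-sulfur subunit of the NADH-oxidizing arm, had the lowest p in the class. It had 87.2, 88.6 and 91.4 CPM with TGFB1, against 121, 109.7 and 109 CPM in controls, a log2 fold change of -0.35 ± 0.055 (edgeR adjusted p = 5.72e-06) with no overlap. NDUFA6, an accessory subunit of the LYR family, had 64.2, 63.8 and 67.7 CPM with TGFB1, against 75.0, 78.3 and 79.9 CPM in controls, and fell by 0.25 on the log2 scale (edgeR adjusted p = 0.000612). NDUFA1, a small membrane-arm subunit, had 51.0, 42.9 and 52.6 CPM with TGFB1, against 55.4, 64.1 and 58.7 CPM in controls, and fell by 0.29 (edgeR adjusted p = 0.00188). The core subunit NDUFV1, which binds NADH and FMN, was called lower by 0.20, whereas the core subunits NDUFS3 and NDUFS8 had log2 fold changes of -0.078 and -0.10 and were not called (edgeR adjusted p = 0.244 and 0.119).

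The largest complex I value belongs to a gene with few reads. NDUFV2, an iron-sulfur subunit beside NDUFV1, had 2.04, 1.77 and 1.36 CPM with TGFB1, against 3.08, 2.22 and 3.13 CPM in controls, a log2 fold change of -0.70 ± 0.24 (edgeR adjusted p = 0.0175). The call had an adjusted p of 0.0748 without TGFB1 library 3, 0.0604 without control library 1 and 0.0800 without control library 3. Its pseudogene NDUFV2P1 took more reads than the gene, with 18.5 ± 2.52 CPM with TGFB1 and 25.5 ± 0.993 CPM in controls, and was also called lower (edgeR adjusted p = 9.67e-05). Gene and pseudogene together summed to 20.2 ± 2.43 CPM with TGFB1 and 28.3 ± 0.662 CPM in controls. Which of the loci the reads came from cannot be told apart.

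NDUFS4 and the assembly factor NDUFAF2 were the complex I genes called higher. NDUFAF2 is an assembly chaperone that binds a late intermediate of complex I. It had 35.1, 37.6 and 37.1 CPM with TGFB1, against 29.4, 28.2 and 26.4 CPM in controls, a log2 fold change of 0.39 ± 0.072 (edgeR adjusted p = 5.08e-05) with no overlap. NDUFS4, a late-joining accessory subunit of the NADH-oxidizing arm, had 32.5, 32.1 and 32.2 CPM with TGFB1, against 28.4, 29.9 and 27.6 CPM in controls. Its log2 fold change was 0.17 ± 0.072 with an edgeR adjusted p of 0.0497, which became 0.0503 to 0.204 when any of the 6 libraries was left out. NDUFA12, the paralog of NDUFAF2 that takes its place in the finished complex, had 64.0 ± 2.37 CPM with TGFB1 and 58.5 ± 1.94 CPM in controls and was not called (edgeR adjusted p = 0.0812). Of the 7 NDUFAF factors the single one that fell was NDUFAF3, with 49.4, 48.4 and 48.5 CPM with TGFB1, against 54.6, 58.1 and 55.9 CPM in controls, and a log2 fold change of -0.21 ± 0.061 (edgeR adjusted p = 0.00678). The other 5 of the 7 were not called. The shares were thus 14.3% higher and 14.3% lower, under the 23.4% and 23.9% of all genes.

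Complex II, succinate dehydrogenase, is also an enzyme of the tricarboxylic acid cycle. Its 4 genes split into 2 that fell and 2 that were not called. For comparison, 23.9% of all genes were called lower. Among genes with a mean log2 CPM of 5 or more, as all 4 have, 32.3% were called lower. SDHA, the flavoprotein that oxidizes succinate, had 397, 378 and 366 CPM with TGFB1, against 496, 509.5 and 508 CPM in controls. Its log2 fold change was -0.41 ± 0.046 (edgeR adjusted p = 2.01e-08), a level 24.6% lower with no overlap, and it also passed the test against 1.2-fold (adjusted p = 0.0025). SDHD, a membrane anchor, had 46.7, 43.2 and 46.0 CPM with TGFB1, against 57.8, 57.4 and 55.7 CPM in controls, a log2 fold change of -0.33 ± 0.063 (edgeR adjusted p = 6.44e-05). The iron-sulfur subunit SDHB had 156, 147 and 168 CPM with TGFB1, against 158, 166 and 161 CPM in controls, and the groups overlapped (log2 fold change -0.046 ± 0.052, edgeR adjusted p = 0.507). The other anchor, SDHC, had 56.8, 59.2 and 66.4 CPM with TGFB1, against 63.1, 67.8 and 63.1 CPM in controls (log2 fold change -0.092 ± 0.065, edgeR adjusted p = 0.259). Without TGFB1 library 3 it was -0.16, with an adjusted p of 0.0404. SDHA and SDHB share 1 enzyme head, and the difference between their fold changes was not tested.

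In complex III, the cytochrome bc1 complex, 5 of 9 nuclear genes fell (55.6%) and none rose, with a class median of -0.22. The share called lower was 23.9% over all genes and 32.3% over those with a mean log2 CPM of 5 or more, as all 9 have. UQCRC2, a core protein on the matrix side, had 168, 153 and 167 CPM with TGFB1, against 226, 241 and 227 CPM in controls. This is a log2 fold change of -0.51 ± 0.051 (edgeR adjusted p = 1.66e-09) and a level 29.7% lower. Its partner core protein UQCRC1 did not follow, with 369.7 ± 8.85 CPM with TGFB1 and 376 ± 13.3 CPM in controls (log2 fold change -0.025, edgeR adjusted p = 0.696). CYC1, the cytochrome c1 that hands electrons to cytochrome c, had 176, 167 and 179 CPM with TGFB1, against 209, 227 and 226 CPM in controls, a log2 fold change of -0.35 ± 0.050 (edgeR adjusted p = 1.25e-06). UQCRB, a quinone-site subunit, had 112, 108 and 130.5 CPM with TGFB1, against 137, 143 and 144 CPM in controls, and fell by 0.28 (edgeR adjusted p = 0.000292). The Rieske iron-sulfur protein UQCRFS1 fell by 0.27 (edgeR adjusted p = 0.000373), and its pseudogene row UQCRFS1P1, which the name rule also takes, was lower by 0.24.

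CYCS, the mobile cytochrome c itself, was called with a small change. It had 259, 252 and 306 CPM with TGFB1, against 305, 319 and 287 CPM in controls. TGFB1 library 3 lay within the control range, and the log2 fold change was -0.16 ± 0.061 (edgeR adjusted p = 0.0387). The value depended on single libraries: it was -0.25 without TGFB1 library 3 (adjusted p = 7.44e-05), and the adjusted p was 0.175 and 0.184 without TGFB1 libraries 1 and 2 and 0.0807 and 0.111 without control libraries 1 and 2.

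Complex IV held the largest change in each direction. Of its 15 nuclear genes 11 were tested, 8 fell (72.7%) and 1 rose (9.09%), against 23.9% and 23.4% of all genes, with a class median of -0.19. The share called lower was 32.3% over genes with a mean log2 CPM of 5 or more, as 8 of the 11 have. NDUFA4, despite its NDUF name, was counted in complex IV and is among the 8 that fell (edgeR adjusted p = 0.0271). Its call was lost in 7 of the fits with another setting or with a library left out. COX6C, a small membrane subunit, had 61.0, 56.7 and 73.1 CPM with TGFB1, against 109.9, 113 and 104 CPM in controls. Its log2 fold change of -0.78 ± 0.070 (edgeR adjusted p = 8.24e-10) is a level 41.9% lower, with every TGFB1 library well under every control. COX7C had 119.7, 119 and 134 CPM with TGFB1, against 159.8, 168 and 164 CPM in controls, a log2 fold change of -0.40 ± 0.053 (edgeR adjusted p = 2.33e-07). COX7B had 155, 143 and 153 CPM with TGFB1, against 187, 205 and 195 CPM in controls, a log2 fold change of -0.38 ± 0.051 (edgeR adjusted p = 3.87e-07). COX7C and COX7B are further small nuclear subunits that surround the mitochondrial core. COX4I1, the main regulatory subunit, lies outside the name rule and also fell, with 254, 239 and 258 CPM with TGFB1, against 281, 305 and 305 CPM in controls (log2 fold change -0.25 ± 0.049, edgeR adjusted p = 0.000123). A list outside the name rule, over all complexes, held 6 tested genes for subunits or proteins associated with them. Of the 6, 2 fell (33.3%, against 23.9% of all genes), with a median of -0.097. NDUFAB1, COX7A2L, C14orf2 and USMG5 were not called.

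Several complex IV subunits exist as a pair of genes, a common form and a form of muscle, testis or other tissues. COX6B2, the testis form of the 6B subunit, was the 1 complex IV gene that rose. It had 1.63, 2.38 and 1.43 CPM with TGFB1, against 0.586, 0.416 and 0.867 CPM in controls, a total of 82 reads with TGFB1 and 27 in controls. It had a log2 fold change of 1.54 ± 0.34 (edgeR adjusted p = 0.000421), and the groups did not overlap. The common form COX6B1 had 138, 129 and 135 CPM with TGFB1, against 159, 167 and 152 CPM in controls, and fell by 0.25 (edgeR adjusted p = 0.000154), so COX6B2 was a small minority of 6B reads in both groups.

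The other tissue forms were nearly silent. COX6A2 and COX7A1, the heart and muscle forms, had 1 and 13 reads over the TGFB1 libraries and 1 and 10 over the controls, and COX7B2 and COX8C had 0 in all libraries. Of their common partners COX7A2 had 65.0, 61.1 and 72.5 CPM with TGFB1, against 79.2, 70.4 and 72.7 CPM in controls, which overlap. It was called lower (log2 fold change -0.17 ± 0.066, edgeR adjusted p = 0.0401), with an adjusted p of 0.128 and 0.229 without TGFB1 libraries 1 and 2 and 0.178 and 0.0724 without control libraries 1 and 3. COX8A had 26.4, 23.7 and 27.7 CPM with TGFB1, against 27.0, 28.7 and 32.7 CPM in controls, and was not called (log2 fold change -0.19 ± 0.083, edgeR adjusted p = 0.0637), but its adjusted p was 0.0291 without TGFB1 library 3 and 0.0241 without control library 1. COX6A1 had 23.4, 19.95 and 31.7 CPM with TGFB1, against 23.1, 23.9 and 29.7 CPM in controls (edgeR adjusted p = 0.844). Its pseudogene row COX6A1P2, at 81.3 ± 1.71 CPM with TGFB1 and 88.4 ± 6.37 CPM in controls, took more reads than the gene and was not called either (edgeR adjusted p = 0.0946). For UQCRH of complex III, the hinge protein, the levels were 97.8, 92.2 and 107 CPM with TGFB1, against 95.7, 113 and 104 CPM in controls, with no call (edgeR adjusted p = 0.329).

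**Figure D4:**
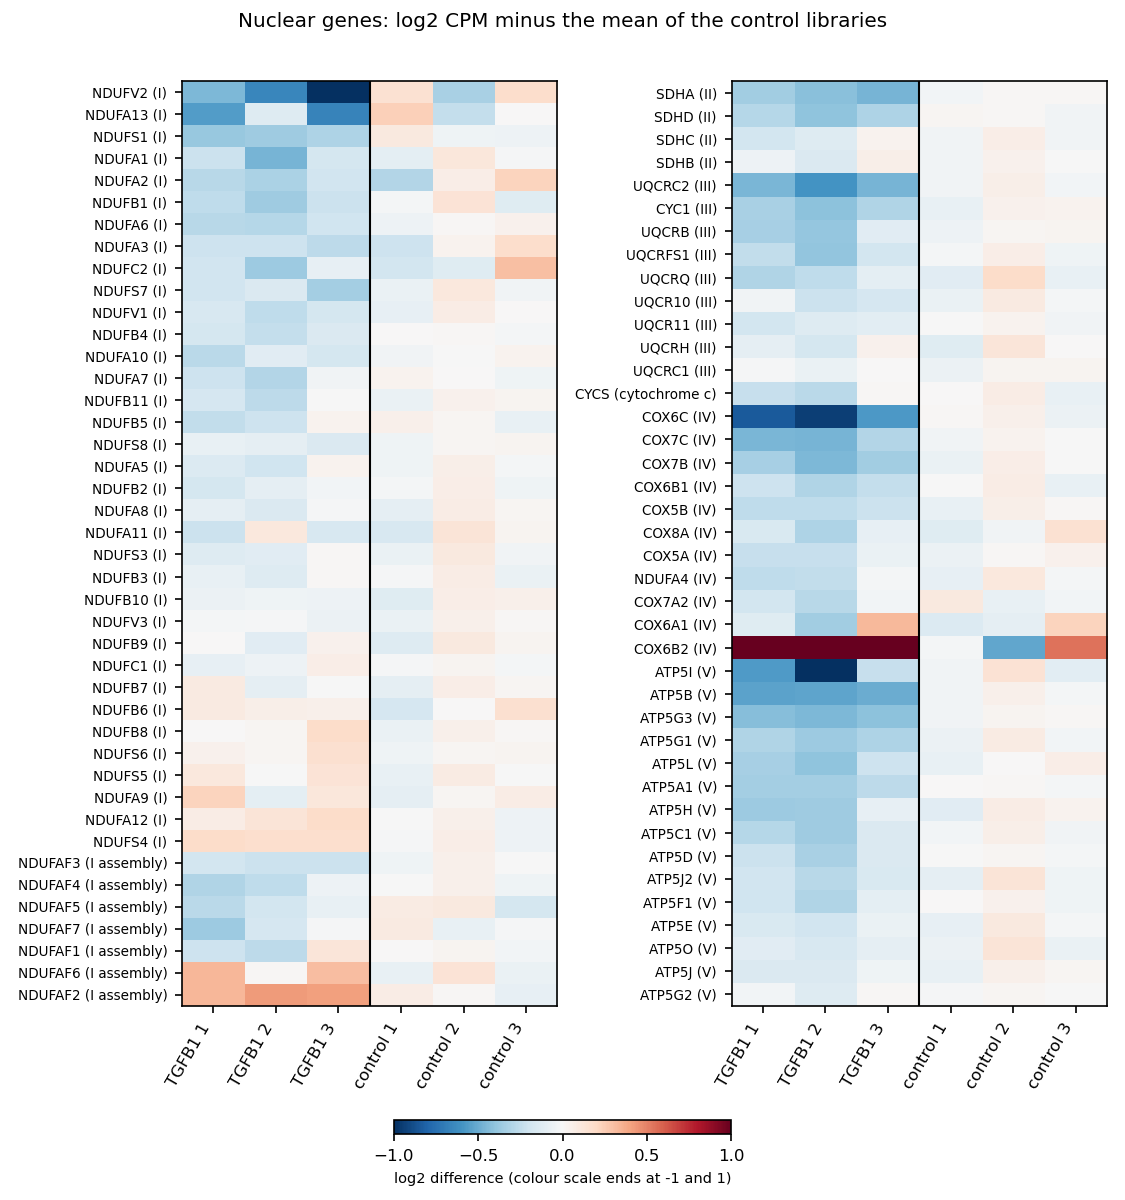
Log2 CPM of tested nuclear genes minus the mean of the control libraries, by complex and then by fold change; columns are libraries, blue is lower and red is higher, and the colour scale ends at -1 and 1. COX6C, ATP5B, UQCRC2 and SDHA are blue in all 3 TGFB1 libraries, COX6B2 and NDUFAF2 are red, and TGFB1 library 3 is paler than the other two in many genes.

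In complex V 11 of 15 nuclear genes fell and none rose, against 23.9% of all genes called lower, with a class median of -0.26 and summed CPM 21.5% lower. The share called lower was 32.3% over genes with a mean log2 CPM of 5 or more, as 13 of the 15 have. Among the called genes ATP5B fell most. ATP5B, the catalytic β subunit and the most counted nuclear gene of the 87, had 1045, 1050.01 and 1078 CPM with TGFB1, against 1482, 1570.4 and 1500.25 CPM in controls. This is a log2 fold change of -0.52 ± 0.045 (edgeR adjusted p = 8.16e-11) and a level 30.3% lower. ATP5A1, the α subunit that alternates with β in the head, had 411, 409.8 and 434 CPM with TGFB1, against 521, 524 and 514 CPM in controls, a log2 fold change of -0.31 ± 0.045 (edgeR adjusted p = 1.34e-06). The γ and δ subunits of the central stalk, ATP5C1 and ATP5D, fell by 0.26 and 0.23 (edgeR adjusted p = 0.000237 and 0.000999). ATP5L, subunit g of the membrane sector, had 41.7, 39.7 and 45.5 CPM with TGFB1, against 49.7, 52.7 and 55.1 CPM in controls, and fell by 0.31 (edgeR adjusted p = 0.000317). The stalk subunits ATP5O and ATP5J had log2 fold changes of -0.13 and -0.11 and were not called (edgeR adjusted p = 0.24 and 0.133). ATP5J had an adjusted p of 0.0499 without TGFB1 library 3.

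The c subunit, which forms the rotating ring, is coded by 3 nuclear genes that give the same mature protein, and only 2 of the 3 were called. ATP5G3 had 141, 139 and 142 CPM with TGFB1, against 185, 193 and 191 CPM in controls, a log2 fold change of -0.43 ± 0.048 (edgeR adjusted p = 1.35e-08). ATP5G1 had 123, 118 and 123 CPM with TGFB1, against 146, 161 and 148 CPM in controls, a log2 fold change of -0.33 ± 0.051 (edgeR adjusted p = 5.62e-06). ATP5G2, the most counted of them, had 269, 251 and 278 CPM with TGFB1, against 273, 278 and 274 CPM in controls, and its log2 fold change was -0.048 ± 0.048 (edgeR adjusted p = 0.441), or 0.0085 with scaling by library size alone. ATP5G2 thus made up 50.5%, 49.5% and 51.2% of c subunit CPM with TGFB1, against 45.2%, 44.0% and 44.7% in controls, with no overlap. The sum of the 3 genes was 528 ± 18.2 CPM with TGFB1 and 616 ± 14.4 CPM in controls.

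Genes for 1 protein can share reads, so the ends of their coding sequences are shown, the last 90 coding bases in GENCODE 29 with the stop codon included, where capitals mark each position at which the 3 are not all alike.
ATP5G1: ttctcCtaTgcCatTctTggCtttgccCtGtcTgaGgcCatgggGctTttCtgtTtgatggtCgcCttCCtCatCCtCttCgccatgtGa
ATP5G2: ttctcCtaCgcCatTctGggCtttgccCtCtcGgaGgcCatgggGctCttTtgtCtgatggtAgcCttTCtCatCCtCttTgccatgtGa
ATP5G3: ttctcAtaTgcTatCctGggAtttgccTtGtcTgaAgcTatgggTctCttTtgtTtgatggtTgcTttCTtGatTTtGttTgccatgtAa
Over these bases ATP5G1 and ATP5G2 were 88.9% identical, ATP5G1 and ATP5G3 77.8% and ATP5G2 and ATP5G3 76.7%. The genes lie on chromosomes 17, 12 and 2. The deposited tables keep reads aligned to several places in a line of their own, so a read without a differing base would be missing from all 3 genes.

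The promoters of nuclear respiratory genes are known for sites of the activators NRF1 and GABP, the second of which binds ETS letters, and for YY1 sites. RefSeq promoters of GRCh38.p14, from 250 bases before to 50 after the start, were found for 72 of the 87 nuclear genes. The 10-letter palindrome of NRF1, which is in capitals in the promoter stretches shown here, occurred in 5 of the 72 (6.94%), against 2.39% of the promoters of genes tested and 1.36% of all 27305 promoters, with both strands searched for this and the following motifs. Its form with the fifth base open, which includes it, occurred in 23.6% of members, against 11.9% of genes tested and 6.28% of all promoters. CCGGAAG, the ETS letters, occurred in 26.4%, against 19.3% and 10.7%. AAGATGGCG, the YY1 letters, occurred in 11.1%, against 3.96% and 1.85%, but in 1.39%, against 1.08% and 0.641%, when only the 250 bases before the start were searched. TATAAA occurred in 9.72%, against 5.59% of genes tested and 12% of all promoters. These are matches of letters and say nothing of binding in these cells.

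Within the 250 bases before the start, 3 of 72 members (4.17%) held the strict NRF1 letters, against 2.03% of genes tested. They were SDHD, ATP5C1 and the complex I membrane subunit NDUFB4, called lower with log2 fold changes of -0.33, -0.26 and -0.19. Of the 31 lower genes with a promoter they are 3, and none of the 35 genes not called held the letters. Calls were not counted for all tested genes with these letters or for members with them only in the wider window. A group of 3 genes is too small to read a link from. With the open base the count was 6 of 31 lower genes and 7 of 35 genes not called. The median log2 fold change was -0.19 over the 13 tested genes with the open-base letters and -0.18 over the 56 without. The 3 stretches are shown with the NRF1 letters in capitals, all from the plus strand, at chr11:112086738-112086797, chr10:7788130-7788176 and chr3:120596152-120596211.
SDHD: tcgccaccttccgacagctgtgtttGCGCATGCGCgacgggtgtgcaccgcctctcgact
ATP5C1: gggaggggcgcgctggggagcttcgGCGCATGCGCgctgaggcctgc
NDUFB4: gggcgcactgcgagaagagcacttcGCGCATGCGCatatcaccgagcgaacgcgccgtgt

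Nuclear regulators of these genes were called in both directions. PPARGC1A, the PGC-1α coactivator that drives mitochondrial gene programs, had 13.4, 15.1 and 15.1 CPM with TGFB1, against 32.0, 27.1 and 30.5 CPM in controls. It fell, with a log2 fold change of -1.04 ± 0.089 (edgeR adjusted p = 7.16e-11). NRF1 itself had 24.5, 19.6 and 23.8 CPM with TGFB1, against 22, 23.1 and 22.6 CPM in controls, and was not called (edgeR adjusted p = 0.996). GABPB2, a β subunit of GABP, fell by 0.65 (edgeR adjusted p = 1.21e-07). The other GABP genes of the list, GABPA and GABPB1, were not called (log2 fold changes 0.11 and 0.084, edgeR adjusted p = 0.301 and 0.324). YY1 rose by 0.20 (edgeR adjusted p = 0.000811). MYC, a growth regulator that also activates nuclear mitochondrial genes, rose to 391, 378 and 384 CPM with TGFB1, against 176, 182 and 182 CPM in controls (log2 fold change 1.09 ± 0.046, edgeR adjusted p = 1.14e-17). Of the 10 regulators 3 rose (30.0%) and 2 fell (20%), near the 23.4% and 23.9% of all genes.

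Of 16 genes of mitochondrial transcription and DNA replication 4 rose (25%) and 1 fell (6.25%), against 23.4% and 23.9% of all genes, with a median of 0.088. Of the 4 that rose only POLRMT makes RNA, and the others act on mitochondrial DNA. POLRMT, the mitochondrial RNA polymerase, had 167, 156 and 157 CPM with TGFB1, against 101, 98.7 and 96.4 CPM in controls. It rose, with a log2 fold change of 0.70 ± 0.051 (edgeR adjusted p = 2.84e-12) and no overlap. The DNA helicase Twinkle, C10orf2 in the tables, and the topoisomerase TOP1MT rose by 0.27 each (edgeR adjusted p = 0.000911 and 0.00401). TFAM, which packages and activates mitochondrial DNA, had 93.3, 87.1 and 90.4 CPM with TGFB1, against 97.5, 96.2 and 92.9 CPM in controls, and was not called (log2 fold change -0.082 ± 0.054, edgeR adjusted p = 0.23).

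Of 17 genes for mitochondrial RNA processing and stability 5 fell (29.4%) and none rose, with a median of -0.081. The share that fell was near the 23.9% of all genes. LRPPRC, which stabilizes mitochondrial mRNAs, had 292, 293 and 299.6 CPM with TGFB1, against 395, 391 and 382 CPM in controls, a log2 fold change of -0.40 ± 0.045 (edgeR adjusted p = 1.68e-08). FASTKD5, needed for the cutting of junctions without tRNAs, fell by 0.48 (edgeR adjusted p = 2.65e-06). PDE12, which removes poly(A) tails, fell by 0.38 (edgeR adjusted p = 0.000152). The 73 tested mitochondrial ribosomal proteins, which translate the 13 mRNAs, had 9 higher (12.3%), 6 lower (8.22%) and a median of 0.0048. Over all genes 23.4% were called higher and 23.9% lower. Among them MRPL2 rose by 0.33 and MRPL34 fell by 0.33.

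The other assembly factors were called in shares that differed by list. Of 21 tested complex IV assembly genes 2 rose and 2 fell (9.52% each, against 23.4% and 23.9% of all genes), with a median of 0.036. COX15, which makes heme A, fell by 0.27 (edgeR adjusted p = 0.000295), and SURF1 rose by 0.18 (edgeR adjusted p = 0.0314). Of 9 complex I assembly genes outside the NDUFAF names 1 rose (11.1%) and 2 fell (22.2%), with a median of -0.014. TMEM126B rose by 0.34 (edgeR adjusted p = 0.00011), and TMEM70 and FOXRED1 fell. Of 9 assembly genes of complexes II, III and V 3 fell (33.3%, against 23.9% of all genes) and none rose, with a median of -0.011. ATPAF1, the chaperone of the ATP5B subunit, had 40.0, 40.1 and 41.3 CPM with TGFB1, against 57.6, 59.3 and 58.7 CPM in controls. Its log2 fold change of -0.53 ± 0.062 (edgeR adjusted p = 3.15e-08) stood beside that of ATP5B, and UQCC1 and TTC19 of complex III fell by 0.34 and 0.30.

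The enzymes that feed the chain were also lower on balance. Of 13 tricarboxylic acid cycle genes 9 fell (69.2%) and 1 rose (7.69%), against 23.9% and 23.4% of all genes, with a median of -0.24. All 13 have a mean log2 CPM of 5 or more, where 32.3% of genes were called lower and 23.8% higher. OGDH, the first component of the oxoglutarate dehydrogenase complex, had 209.95, 214 and 195 CPM with TGFB1, against 480.3, 476 and 485 CPM in controls (log2 fold change -1.22 ± 0.048, edgeR adjusted p = 2.27e-18). DLD, a further component of that complex, fell by 0.55 (edgeR adjusted p = 1.25e-09). Of 8 genes for carriers and dehydrogenases that feed electrons toward coenzyme Q 5 fell (62.5%) and 1 rose (12.5%). GPD2, of the glycerol phosphate shuttle, fell by 0.72 and ETFDH, of fatty acid oxidation, by 0.70, while the sulfide oxidoreductase SQRDL rose by 1.34 (edgeR adjusted p = 5.88e-10, 1.68e-07 and 2.27e-06). Of 10 coenzyme Q synthesis genes 2 rose, with ADCK3 at 0.88 and COQ4 at 0.32, and 2 fell, with COQ2 at -0.57.

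Of 18 general mitochondrial genes for import, channels, carriers and chaperones 8 fell (44.4%) and 1 rose (5.56%), against 23.9% and 23.4% of all genes, with a median of -0.084. At a mean log2 CPM of 5 or more, as 16 of the 18 have, 32.3% of genes were called lower. The CPM of the 18 summed to 5100 to 5520 with TGFB1 and 6000 to 6300 in controls, with no overlap. The ADP/ATP carrier SLC25A4 had 13.8, 13.4 and 16.5 CPM with TGFB1, against 26.7, 28.1 and 24.9 CPM in controls, a log2 fold change of -0.87 ± 0.092 (edgeR adjusted p = 5.19e-09). The matrix chaperones HSPA9 and HSPD1 fell by 0.43 and 0.41 (edgeR adjusted p = 6.02e-09 and 2.74e-08). These lists were read from the fit over all genes, by counts and medians, and none was tested as a set.

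**Figure D5:**
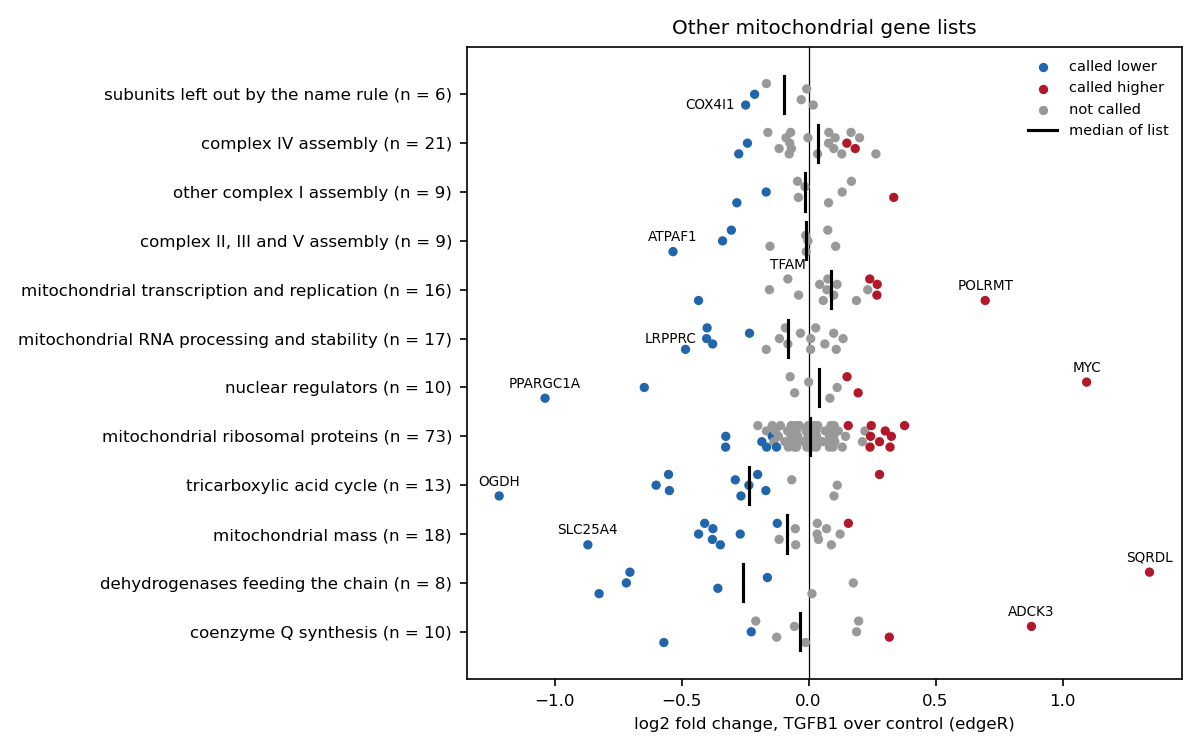
Log2 fold changes of the tested genes of 12 other mitochondrial lists, TGFB1 over control; each point is a gene, colour gives the edgeR call, bars are list medians and some genes are named. The tricarboxylic acid cycle and the carriers and dehydrogenases feeding the chain have medians of -0.24 and -0.26, and POLRMT and MYC lie right of 0.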

How the data were processed

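RNA-sequencing counts of 3 TGFB1 and 3 control SW480 libraries were used. The authors deposited raw read counts per gene symbol; TopHat2 2.0.11, HTSeq and the builds hg19 and GRCh37 are named in the submitters' processing notes, which give no annotation, strand setting or filter. Counter totals stayed out of all fits: ambiguous reads were 9.01% to 9.43% of all lines, reads at several places 12.0% to 12.5% and reads in no feature 5.44% to 5.98%. Total counts in genes ran from 13012898 to 16005222.

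Genes were kept with filterByExpr (minimum count 10, total 15), scaled by TMM (factors 1.015 to 1.024 with TGFB1 and 0.975 to 0.987 in controls) and tested with edgeR 4.0.16 in R 4.3.3 by the robust quasi-likelihood test, 2-sided, with Benjamini-Hochberg adjustment over all 14897 genes and a threshold of 0.05. "Rose" and "fell" mean called by this test. glmTreat tested against 1.2-fold. Standard errors were the fold change over the root of F. The biological coefficient of variation was 0.047. With no statement that replicates are separate cultures, p-values reflect only how these libraries vary, which may be technical. No pair of libraries within a group agreed within sampling noise, where chi-square per degree of freedom was 1.82 to 4.67.

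Members and lists were chosen with earlier results of these data known. Values in every library were given for all mitochondrial genes and the 3 called genes of lowest p in each nuclear class. They were also given for the 5 largest called rises and falls, SDHA to SDHD, CYC1, CYCS and paralog sets. In other lists, up to 3 called genes of lowest p and 5 set genes were named. Further genes were named among the regulators and the subunits outside the name rule. Alternatives were DESeq2 1.42.0, limma-voom (limma 3.58.1), other scalings and filters, a replicate block, GC and length offsets (GENCODE 29), pseudogene rows summed in and each library left out. The fit was tested on simulated data. Positions and sequences are of GRCh38 and enter no count. A few genes entered every fit and count without being named in the text.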

Additional observations from a re-analysis of the deposited data

How the results depend on the processing

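In the 11 alternatives and the 6 fits with a library left out, 9 to 11 mitochondrial genes were lower and none higher, and 29 to 49 nuclear genes were lower. Of the 10 mitochondrial calls 8 held in all fits, the others being MT-CO2 and MT-ND4L, and of 39 lower nuclear calls 28 did. Nuclear genes called higher were 3, but 7 with library size alone and 5 with upper quartile scaling, and 2 to 3 with a library left out. The replicate block left 9 mitochondrial and 38 nuclear genes lower and 2 nuclear higher. Same-numbered libraries were not paired by their deviations (correlations of 0.031, -0.11 and -0.048). With library size alone, which moved the median of all genes by 0.056, class medians were -0.045 for nuclear complex I, -0.16 for complex II, -0.10 for cytochrome c, -0.12, -0.16 and -0.072 for mitochondrial complexes III, IV and V, and the others moved by less than 1.5 times. Leaving out a library gave medians of -0.23 to -0.0904 for complex I assembly, the highest without TGFB1 library 1, and -0.29 to -0.13 for complex III, the highest without control library 2. The sign turned only in genes not called, and the cause was not tested. With library size alone, log2 fold changes were 0.0085 for ATP5G2, 0.011 for COX6A1, 0.019 for MT-ATP6, 0.0045 for NDUFB10, 0.054 for NDUFB7, 0.031 for NDUFB9, 0.033 for NDUFC1, 0.027 for NDUFV3, 0.011 for SDHB and 0.032 for UQCRC1. Upper quartile scaling gave 0.023 for NDUFB7, 0.0017 for NDUFC1 and 0.0002 for UQCRC1. For NDUFB7 DESeq2 gave 0.0008 and RLE scaling 0.0005. For SDHC GC and length offsets gave 0.018. With a library left out COX6A1 ran from -0.25 to 0.0996, NDUFB6 from -0.0255 to 0.13, NDUFB7 from -0.051 to 0.042, NDUFB9 from -0.092 to 0.019, NDUFC1 from -0.068 to 0.0071 and SDHB from -0.098 to 0.0009. Low reads limited COX6B2, NDUFV2 and MT-ATP8, and the mitochondrial share of counts kept its groups apart when other MT rows were left out of the total (4.47% with TGFB1 and 5.20% in controls).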

Other observations

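The 2 mitochondrial ribosomal RNAs are no mRNAs and entered none of the comparisons above. Their rows took 0.391% to 0.445% of gene counts with TGFB1 and 0.519% to 0.556% in controls, and the groups did not overlap. The labels do not say how ribosomal RNA was removed or mRNA selected, and its part in these shares was not tested. ATP5SL, also known as the complex I assembly protein DMAC2 and left out of the ATP synthase counts, had 49.4 CPM with TGFB1 and 56.1 CPM in controls and was called lower (log2 fold change -0.19, edgeR adjusted p = 0.0148). ATP5S had 7.01 CPM with TGFB1 and 8.38 CPM in controls and was not called (edgeR adjusted p = 0.202).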
